A study of Rattus norvegicus with 5 samples.

Results

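The Bcl2 family and the caspases are the core machinery of programmed cell death, and their transcripts were examined here in hippocampus of rats labelled P5. Members were taken by name from 9 genes: Bcl2, Bcl2l1, Bcl2l2, Mcl1, Bax, Bak1, Casp1, Casp2 and Casp6. Every probe set annotated to exactly 1 of these symbols was used, which gave 17 of the 8740 probe sets on the array other than controls, for 7 of the 9 genes and among 4736 genes named on the array. No probe set was assigned to Mcl1, which is not analysed here. The 3 probe sets annotated to Bax carry a second locus as well, so they are described apart and counted nowhere. The series holds 5 single-colour oligonucleotide arrays of total RNA: 2 from rats exposed to alcohol before birth (fetal alcohol), 1 from an isocaloric diet, the feeding control, and 2 from a control diet. The labels give no strain, sex, alcohol dose, time of exposure or number of animals per array, so the spread between arrays may in part be technical, and the isocaloric group has no replicate. The number of arrays limits the precision of every value below.

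In the mitochondrial route of cell death, Bcl2 and its relatives Bcl2l1, Bcl2l2 and Mcl1 hold the pore-forming proteins Bax and Bak1 in check on the outer membrane of the mitochondrion. Once Bax and Bak1 are freed they open that membrane, cytochrome c leaves, and caspases, the proteases that dismantle the cell, are activated. Neurons die in large numbers by this route as the brain forms, and alcohol given to rodents in this period is known to cause apoptosis. Much of the control lies in protein binding and cleavage, which transcript arrays do not measure.

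The members differ in the DNA at their gene starts, shown here for the 4 members with the largest differences between fetal alcohol and control diet. The stretches come from RefSeq on build GRCr8, run from 250 bases before to 50 after the annotated start and are read along the gene's strand. Capitals mark 3 short motifs searched on both strands: GGGCGG (the GC box), CCAAT (the CCAAT box) and TATAAA (the TATA box). Among 33469 stretches of this length, GGGCGG was in 33.1%, CCAAT in 37.5% and TATAAA in 14.2%.
Bcl2, chr13:23366851-23367150, minus strand: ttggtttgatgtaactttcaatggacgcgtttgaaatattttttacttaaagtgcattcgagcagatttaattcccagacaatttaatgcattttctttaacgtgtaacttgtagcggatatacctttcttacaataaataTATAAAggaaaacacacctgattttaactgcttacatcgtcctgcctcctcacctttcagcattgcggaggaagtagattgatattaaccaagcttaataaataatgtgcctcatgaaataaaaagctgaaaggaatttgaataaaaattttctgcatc
Bcl2l1, most upstream of its 4 starts in the table, chr3:161764726-161765025, minus strand: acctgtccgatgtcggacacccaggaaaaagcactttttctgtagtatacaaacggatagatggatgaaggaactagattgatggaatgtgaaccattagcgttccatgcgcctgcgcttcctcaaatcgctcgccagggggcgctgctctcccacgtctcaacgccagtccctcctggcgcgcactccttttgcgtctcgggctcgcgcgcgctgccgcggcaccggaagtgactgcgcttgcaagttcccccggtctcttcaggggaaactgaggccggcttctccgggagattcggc
Bak1, chr20:5110925-5111224, minus strand: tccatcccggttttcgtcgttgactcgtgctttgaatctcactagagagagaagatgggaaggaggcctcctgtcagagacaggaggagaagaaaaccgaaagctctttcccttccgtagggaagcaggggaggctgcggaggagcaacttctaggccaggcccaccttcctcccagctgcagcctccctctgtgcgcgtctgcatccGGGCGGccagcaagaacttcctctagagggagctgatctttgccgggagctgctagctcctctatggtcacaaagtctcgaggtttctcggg
Casp2, chr4:72116107-72116406, plus strand: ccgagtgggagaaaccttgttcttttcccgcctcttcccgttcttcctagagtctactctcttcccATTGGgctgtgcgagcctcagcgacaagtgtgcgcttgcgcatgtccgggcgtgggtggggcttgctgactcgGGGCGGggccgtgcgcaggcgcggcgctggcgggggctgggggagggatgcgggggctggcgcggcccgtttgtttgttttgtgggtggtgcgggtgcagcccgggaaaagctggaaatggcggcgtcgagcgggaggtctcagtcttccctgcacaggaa
The Bcl2 stretch is AT-rich, with 32.7% G and C against a median of 51.7% over all stretches, and holds TATAAA 1 time and neither other motif. The stretches of Bak1 (57.7% G and C) and Casp2 (66.0%) each hold GGGCGG 1 time, and that of Casp2 also CCAAT 1 time. The Bcl2l1 stretch shown (59.0%) holds none of the 3, while 1 of its other 3 starts holds GGGCGG and 2 hold CCAAT. Those 2 stretches overlap and share a CCAAT site. A match describes letters and is not evidence of a bound factor.

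Among the members that oppose cell death, Bcl2 at its 1 tested probe set and Bcl2l1 at 2 of 3 measured less after fetal alcohol than on the control diet, and the isocaloric array was low there as well. None of these differences passed the threshold, a Benjamini-Hochberg adjusted p of 0.05 in limma over the 5244 probe sets bright enough to be tested. Values are deposited intensities on a linear scale, and differences are on the scale log2(intensity + 10.6), which understates the change of dim probe sets. Bcl2 gives the family its name and binds Bax. Bcl2 probe set L14680_g_at had 19.1 and 35.9 in fetal alcohol samples, 21.6 in the isocaloric sample and 64.2 and 48.0 in control diet samples. Both fetal alcohol arrays lay below both control diet arrays, and the isocaloric array lay between the fetal alcohol ones. The log2 difference of Bcl2 from control diet was -0.83 ± 0.30 after fetal alcohol (SE, n = 2 and 2, limma adjusted p = 0.776) and -1.04 ± 0.36 for the isocaloric array (adjusted p = 0.631). These differences share the 2 control diet arrays, so they are not independent of each other. Fetal alcohol array 2 was the higher of its group: without it the fetal alcohol difference was -1.16, without array 1 it was -0.51, and with the isocaloric array joined to the control diet arrays it was -0.49. The other 2 Bcl2 probe sets were too dim to be tested. L14680_at measured from 2.27 to 8.34 and S74122_s_at from 4.50 to 6.82 over the 5 arrays, all under the offset of 10.6, so Bcl2 rests on 1 probe set that itself was just above the filter.

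Bcl2l1 encodes Bcl-x, a close relative of Bcl2, and young neurons depend on this gene. Its 4 probe sets did not move together. S78284_s_at had 123 and 148 in fetal alcohol samples and 87.4 in the isocaloric sample, against 251 and 202 in control diet samples. The groups did not overlap, and the isocaloric array was the lowest of the 5. Here the log2 difference from control diet was -0.70 ± 0.24 after fetal alcohol (95% confidence interval -1.25 to -0.14, limma adjusted p = 0.762) and -1.26 ± 0.30 for the isocaloric array (-1.94 to -0.59, adjusted p = 0.449). With the isocaloric array joined to the control diet arrays the fetal alcohol difference was -0.27. U34963_s_at showed the same order with smaller steps: 95.9 and 95.7 in fetal alcohol samples and 85.7 in the isocaloric sample, against 112 and 130 in control diet samples, a fetal alcohol difference of -0.31 ± 0.22 (adjusted p = 0.965). With the isocaloric array joined to the control diet arrays that difference was -0.16. U72350_at did not follow, with 183 and 112 in fetal alcohol samples, 89.0 in the isocaloric sample and 121 and 157 in control diet samples. There the fetal alcohol arrays enclosed the control diet arrays (difference 0.05 ± 0.29, adjusted p = 0.997), and the sign turned when 1 array was left out, with values from -0.28 to 0.38. The fourth probe set, U72349_at, was below the filter, with 17.3 and 14.9 in fetal alcohol samples, 12.8 in the isocaloric sample and 26.6 and 10.1 in control diet samples. Which transcript forms of Bcl2l1 each probe set reads is not given in the sources used here, so what a lower signal would mean for survival is not known. On its 3 tested probe sets the isocaloric array was below both fetal alcohol arrays, an order found at 31.5% of all tested probe sets.

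Bcl2l2, which encodes the survival protein Bcl-w, had 35.4 and 58.7 in fetal alcohol samples, 28.4 in the isocaloric sample and 37.0 and 46.6 in control diet samples. The fetal alcohol arrays lay on either side of the control diet arrays, and the isocaloric array was the lowest. Its difference from control diet was 0.11 ± 0.28 after fetal alcohol (-0.53 to 0.76, limma adjusted p = 0.995) and -0.42 ± 0.34 for the isocaloric array (adjusted p = 0.880). An interval this wide leaves room for a change of either sign.

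**Figure D1:**
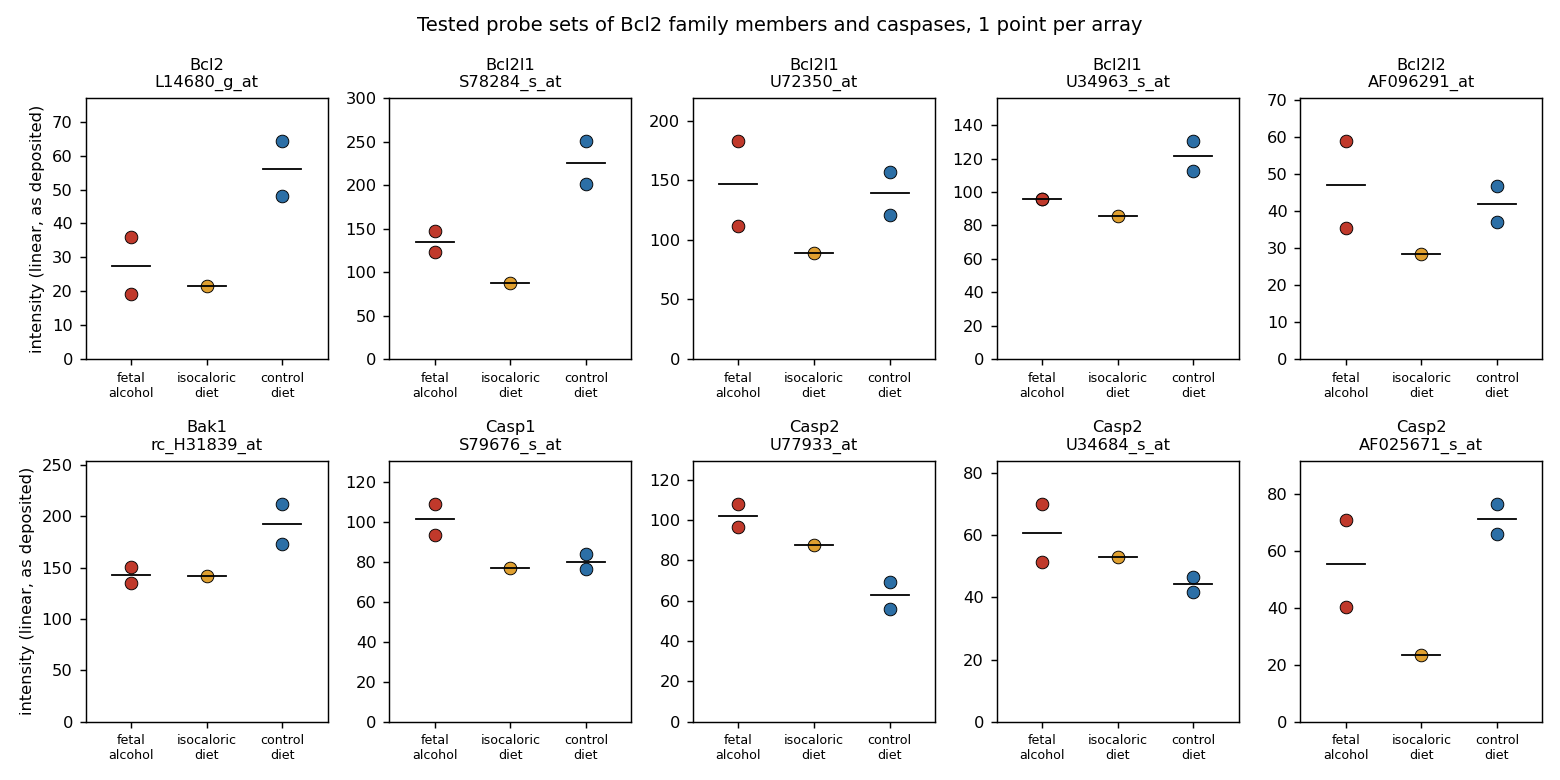
Deposited intensity (linear axis from 0, 1 panel per tested probe set) on fetal alcohol, isocaloric and control diet arrays; points are arrays and black lines are group means. At Bcl2 and at S78284_s_at of Bcl2l1 the fetal alcohol and isocaloric points lie below both control diet points, and at U77933_at of Casp2 they lie above both.

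Of the members that open the mitochondrial membrane, Bak1 also measured less after fetal alcohol. Its probe set had 135 and 151 in fetal alcohol samples and 142 in the isocaloric sample, against 212 and 173 in control diet samples. The fetal alcohol and isocaloric arrays together spanned a narrow range below both control diet arrays. The log2 difference from control diet was -0.40 ± 0.24 after fetal alcohol (-0.94 to 0.14, limma adjusted p = 0.946) and -0.41 ± 0.29 for the isocaloric array (adjusted p = 0.853). Between fetal alcohol and isocaloric diet it was 0.01 ± 0.29, and its sign changed with the normalization. Without control diet array 1 the fetal alcohol difference was -0.26.

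The 3 probe sets annotated to both Bax and LOC681314 cannot be assigned to either gene. Each had a small positive difference after fetal alcohol. U59184_at had 1428 and 1166 in fetal alcohol samples and 1272 in the isocaloric sample, against 1061 and 1148 in control diet samples (difference 0.22 ± 0.21, limma adjusted p = 0.965). S76511_s_at had 181 and 152 in fetal alcohol samples and 105 in the isocaloric sample, against 115 and 135 in control diet samples (0.38 ± 0.23, adjusted p = 0.948). U49729_at had 171 and 170 in fetal alcohol samples and 106 in the isocaloric sample, against 146 and 144 in control diet samples (0.22 ± 0.22, adjusted p = 0.965). All 6 fetal alcohol values thus stood above the matching control diet values, an order found at 16.8% of all tested probe sets, and the 3 share their annotated loci, while the isocaloric array was the lowest of the 5 at S76511_s_at and U49729_at and the second highest at U59184_at.

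Casp2 measured more after fetal alcohol at 2 of its 3 probe sets and less on average at the third. Casp2 is an initiator caspase, activated early in the cascade. U77933_at had 96.3 and 108 in fetal alcohol samples and 87.7 in the isocaloric sample, against 56.0 and 69.4 in control diet samples. Every fetal alcohol and isocaloric value was above both control diet values. The log2 difference from control diet was 0.62 ± 0.23 after fetal alcohol (0.09 to 1.15, limma adjusted p = 0.788) and 0.43 ± 0.28 for the isocaloric array (adjusted p = 0.853). U34684_s_at had 51.3 and 70.0 in fetal alcohol samples and 52.9 in the isocaloric sample, against 41.8 and 46.6 in control diet samples, again without overlap (0.37 ± 0.25, adjusted p = 0.961). Without fetal alcohol array 2 it was 0.18 and without array 1 it was 0.56. AF025671_s_at went the other way and was far apart within fetal alcohol, with 40.2 and 70.9 there, 23.4 in the isocaloric sample and 76.5 and 66.0 in control diet samples. Its fetal alcohol difference was -0.34 ± 0.29 (adjusted p = 0.965), -0.68 without array 2 and -0.002 without array 1. The isocaloric array was the lowest of the 5 there, by -1.26 ± 0.35 from control diet (adjusted p = 0.543) and with fetal alcohol higher by 0.92 ± 0.35 (adjusted p = 0.998). The 3 probe sets of Casp2 therefore give no common direction for the gene.

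Casp1, the caspase that matures interleukin 1 beta and acts in inflammation, had 109 and 93.7 in fetal alcohol samples and 76.9 in the isocaloric sample, against 76.8 and 83.9 in control diet samples, at S79676_s_at. Both fetal alcohol arrays were above the other 3, and the isocaloric array lay within the control diet range. Fetal alcohol differed from control diet by 0.30 ± 0.23 (-0.22 to 0.82, limma adjusted p = 0.965) and from isocaloric diet by 0.35 ± 0.28 (adjusted p = 0.998). The other 2 Casp1 probe sets were too dim to test, with U14647_g_at from 2.19 to 13.4 and U14647_at from 1.17 to 3.97 over the 5 arrays. For microglia and macrophages, cells that make Casp1, the summed intensity of 9 marker genes was 730 and 659 in fetal alcohol samples, 656 in the isocaloric sample and 698 and 970 in control diet samples, and 3 of the 6 tested had positive differences after fetal alcohol. Of those 9, Csf1r was under the offset on all 5 arrays and Itgam and Cd74 on 4. C1qb stood out on control diet array 2, with 162 and 129 in fetal alcohol samples, 147 in the isocaloric sample and 162 and 354 in control diet samples. The part of these cells in the Casp1 values was not tested.

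Casp6, an effector caspase that cleaves nuclear lamins, was not bright enough to be tested. AF025670_g_at had 18.8 and 31.2 in fetal alcohol samples and 21.0 in the isocaloric sample, against 20.4 and 47.7 in control diet samples, with wide overlap. AF025670_at stayed between 2.85 and 5.40, under the offset on every array. With no intensity filter, the 7 dim member probe sets had limma adjusted p-values from 0.940 to 0.995 between fetal alcohol and control diet. No difference in Casp6 was thus detected, which does not show that there was none.

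**Figure D2:**
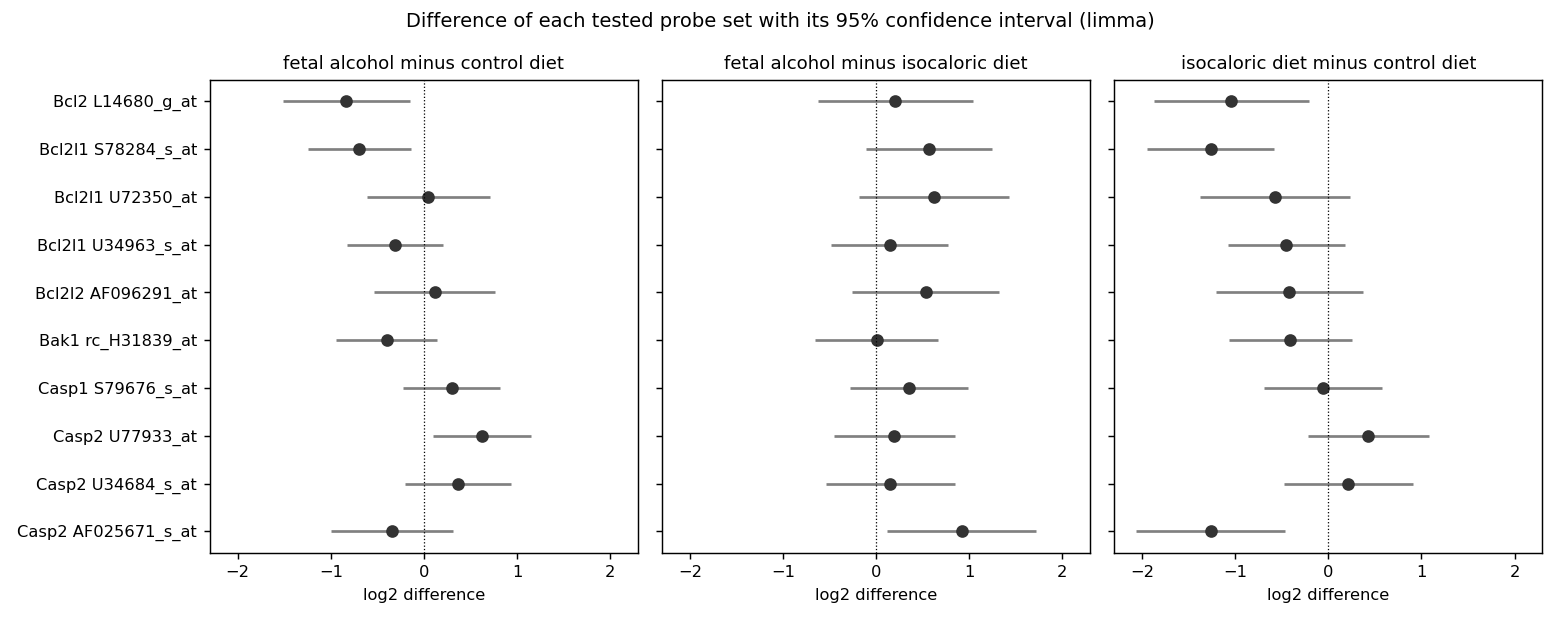
Log2 difference (x axis) of each tested member probe set with its 95% confidence interval, for fetal alcohol minus control diet, fetal alcohol minus isocaloric diet and isocaloric minus control diet. The interval leaves out 0 at Bcl2, S78284_s_at of Bcl2l1 and U77933_at of Casp2 on the left, before any adjustment for the number of probe sets.

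Read together, 10 of the 17 member probe sets, for 6 genes, passed the filter, and 0 of the 10 passed the threshold in any of the 3 comparisons, as did 0 of 5244 probe sets (0%) in each. Between fetal alcohol and control diet 3 of the 10 had an unadjusted limma p under 0.05 (Bcl2, S78284_s_at and U77933_at), beside 5.61% of all probe sets. The groups did not overlap at 4 of the 10 in the lower direction, beside 17.7% of all, and at 3 in the higher direction, beside 16.8%. The median log2 difference of the 10 was -0.13, with 5 positive (beside 50.5% of all) and 5 negative (49.5%), and the median of all probe sets was 0.005. Without regard to sign, the median difference was 0.35 for the members and 0.19 for all. An exact permutation test of 2 against 2 arrays cannot give a two-sided p under 0.333.

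Fetal alcohol minus isocaloric diet was positive at 10 of 10 member probe sets, beside 49.7% of all, with a median of 0.28 against -0.003 over all. Both fetal alcohol arrays were above the isocaloric array at 7 of the 10, beside 31.5% of all, and below it at 0, beside 28.4%. Only AF025671_s_at of Casp2 had an unadjusted p under 0.05 in this comparison (4.21% of all). Isocaloric minus control diet was negative at 8 of 10, beside 48.6% of all, with a median of -0.44 against 0.02. The isocaloric array was below both control diet arrays at 7 of the 10 (37.5% of all) and above both at 2 (38.3%). In that comparison 3 members had an unadjusted p under 0.05, beside 6.81% of all: Bcl2, S78284_s_at of Bcl2l1 and AF025671_s_at. The isocaloric array was below all 4 other arrays at 5 of the 10 (21.9% of all) and above them at 0 (19% of all). At 4 of the 10 the fetal alcohol and isocaloric arrays were all below both control diet arrays (12.6% of all), namely Bcl2, S78284_s_at, U34963_s_at and Bak1, and at 2, both of Casp2, all above (11.7% of all). These 3 comparisons reuse the same 5 arrays, and 1 array carries the isocaloric values, with no replicate check. Several of the 10 probe sets read the same gene, so they are not independent either.

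**Figure D3:**
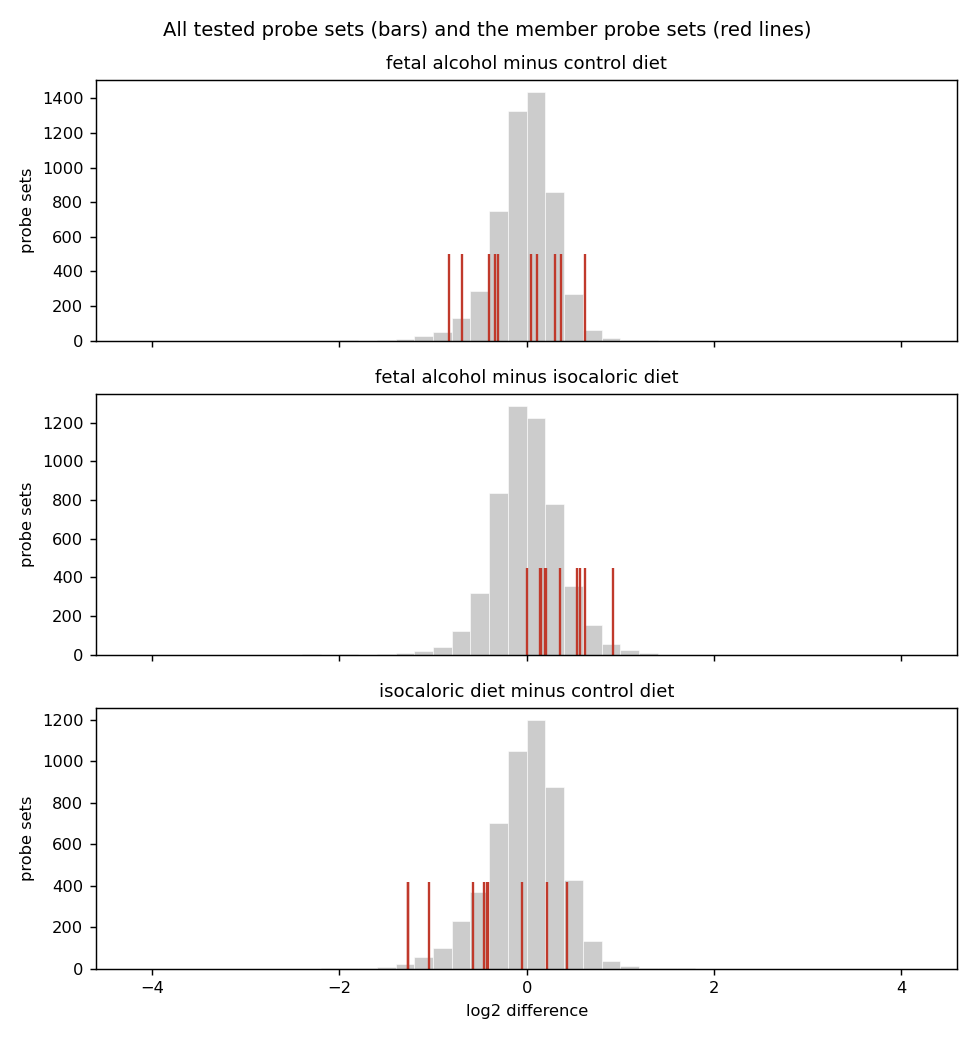
Number of tested probe sets (grey bars, bins of 0.2) by log2 difference in each comparison, with the 10 member probe sets as red lines. The members spread to both sides of 0 for fetal alcohol minus control diet, all lie above 0 for fetal alcohol minus isocaloric diet, and 8 of 10 lie below 0 for isocaloric minus control diet.

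The gap between the 2 fetal alcohol arrays had a median of 0.32 on the log2 scale over the 10 member probe sets, and that between the control diet arrays 0.26, beside 0.30 and 0.20 over all probe sets. The widest fetal alcohol gaps were at AF025671_s_at of Casp2 (0.68), U72350_at of Bcl2l1 (0.66), Bcl2 (0.65) and Bcl2l2 (0.59). Bak1 (0.15), U77933_at of Casp2 (0.15) and U34963_s_at of Bcl2l1 (0.003) had the narrowest. Relative to the wider of both gaps, the fetal alcohol difference was 2.37 times as large at U77933_at and 2.33 times at S78284_s_at. It was 1.57 times at U34963_s_at, 1.51 at Casp1, 1.44 at Bak1 and 1.29 at Bcl2. The rest were lower, with 0.96 at U34684_s_at, 0.50 at AF025671_s_at, 0.19 at Bcl2l2 and 0.07 at U72350_at. This ratio over all probe sets is not given here.

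Across 10 lists of other cell death and survival genes with a probe set, 61 were tested at their brightest probe set, and 0 passed the threshold in any comparison. Between fetal alcohol and control diet 28 differences were positive and 33 negative, with a median of -0.01, and 2 of the 61 genes (3.28%) had an unadjusted limma p under 0.05, beside 5.61% of all probe sets. Further caspases were not analysed here, and the 1 caspase inhibitor with a probe set, Birc2, was below the filter.

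Among the 7 other Bcl2 family genes tested, 4 differences were positive and 3 negative (median 0.05). Hrk, a BH3-only protein that binds Bcl2 and Bcl2l1, had 118 and 136 in fetal alcohol samples and 142 in the isocaloric sample, against 187 and 168 in control diet samples (-0.45 ± 0.23, limma adjusted p = 0.911). Its other tested probe sets gave 0.28 and -0.39, so they disagree. Bid, which caspase cleavage turns into an activator of Bax and Bak1, had 176 and 173 in fetal alcohol samples and 222 in the isocaloric sample, against 135 and 122 in control diet samples (0.41 ± 0.23, adjusted p = 0.922). Neither difference passed.

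In the p53 pathway 3 of 4 genes had positive differences (median 0.31). The exception was Cdkn1a, the p53 target that halts the cell cycle, with 56.2 and 93.5 in fetal alcohol samples and 101 in the isocaloric sample, against 140 and 113 in control diet samples (-0.71 ± 0.28, limma adjusted p = 0.820). Mdm2, the ubiquitin ligase that removes p53, had 0.41 ± 0.24 (adjusted p = 0.946), with 0.05 and 0.17 at its other tested probe sets. Caspase substrates had 6 of 7 negative differences (median -0.12), beside 49.5% of all probe sets. Isocaloric minus control diet was negative at 5 of the 7 (median -0.27), and fetal alcohol minus isocaloric diet was positive at 5. Lmna, the lamin that Casp6 cleaves, had 83.9 and 123 in fetal alcohol samples and 128 in the isocaloric sample, against 149 and 166 in control diet samples (-0.58 ± 0.26, adjusted p = 0.895), and Sptan1, a spectrin cut by caspases and calpains, had -0.23 ± 0.23 (adjusted p = 0.965).

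Survival kinases and their partners had 6 positive and 8 negative differences (median -0.03). Nfkb1, a subunit of the transcription factor NF-kappa-B, had 65.8 and 55.4 in fetal alcohol samples and 32.5 in the isocaloric sample, against 24.0 and 41.2 in control diet samples (0.75 ± 0.28, limma adjusted p = 0.788). Akt2, a kinase that restrains the cell death machinery, had -0.49 ± 0.22 (limma adjusted p = 0.909) and -0.70 at its second probe set. Both fetal alcohol arrays were below both control diet arrays each time, an order found at 17.7% of all tested probe sets. The isocaloric array was also below both control diet arrays each time, with differences of -0.20 and -0.52. The list of mitochondrial pore and released proteins, which also held Bag6 and Tmbim6, had 4 positive and 6 negative differences (median -0.02). Tspo, a protein of the outer mitochondrial membrane, had -0.46 ± 0.28 (limma adjusted p = 0.946). Hk1, the hexokinase bound to that membrane, had -0.36 ± 0.21 (adjusted p = 0.946) and -0.08 at its second probe set. The list of stress kinases and endoplasmic reticulum stress, which also held Jun and Atf3, had 4 positive and 3 negative differences (median 0.06). The kinases Mapk9 and Mapk14 had 0.39 ± 0.25 (limma adjusted p = 0.961) and -0.21 ± 0.23 (adjusted p = 0.965). For Mapk14, isocaloric minus control diet was -1.08, and from -1.01 to 0.26 at its other tested probe sets.

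Death receptors had 3 genes bright enough to test (2 positive, median 0.04), among them Tnfrsf1a, the receptor of tumour necrosis factor, at 0.50 ± 0.61, where the control diet arrays themselves gave 19.6 and 138, and Ngfr, the low-affinity neurotrophin receptor, at 0.04 ± 0.25, with -0.29 at its second probe set. Fas, Faslg and Tnf were below the filter. Of 8 genes of the interleukin 1 pathway 2 were tested, Il1rap, a receptor subunit, at -0.52 ± 0.32 and Il1r2, the decoy receptor, at 0.13 ± 0.24, while Il1b and Il18, whose products Casp1 matures, were below the filter. Calpains and cathepsins had 3 positive and 4 negative differences (median -0.01), with Ctsd, a lysosomal protease, at -0.35 ± 0.28 and Capn2, a calpain, at 0.27 ± 0.26. The limma adjusted p was 0.946 for Il1rap, 0.994 for Il1r2, 0.997 for Ngfr and 0.965 for Tnfrsf1a, Ctsd and Capn2.

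**Figure D4:**
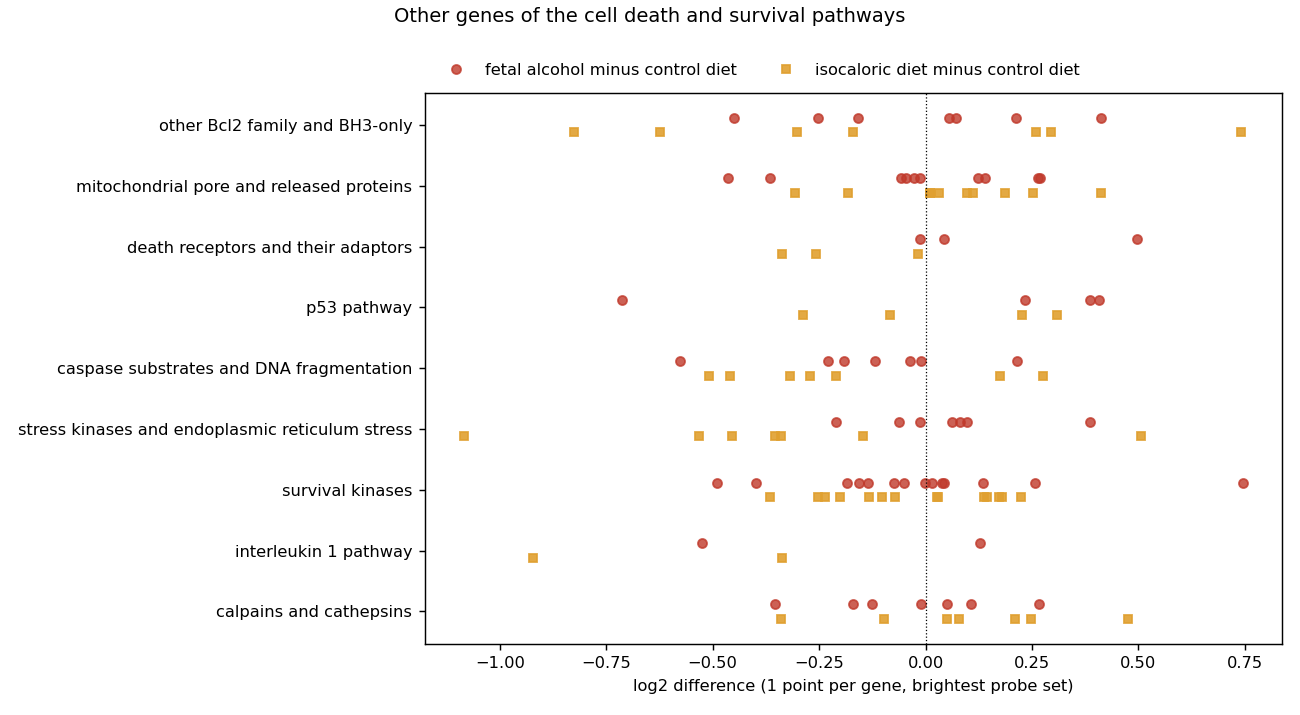
Log2 difference (x axis) of each tested gene in 9 lists of the cell death and survival pathways, for fetal alcohol minus control diet (circles) and isocaloric minus control diet (squares), 1 point per gene at its brightest probe set. Points of every list with more than 3 genes lie on both sides of 0 in both comparisons.

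Of the neuronal markers 8 of 9 passed the filter, as did Calb1, Pcp4 and Nptx1, which hippocampal neurons express along with other brain regions, so these genes cannot check the label hippocampus against other brain tissue. Camk2a, which marks mature excitatory neurons, did not pass. The summed intensity of neuronal markers was 4630 and 5809 in fetal alcohol samples, 4718 in the isocaloric sample and 5469 and 5106 in control diet samples, so the groups overlapped. The 3 hippocampal markers summed to 794 and 1022 in fetal alcohol samples, 762 in the isocaloric sample and 643 and 606 in control diet samples, with 3 of 3 positive after fetal alcohol (median 0.51). Markers of the choroid plexus, the epithelium beside the hippocampus, summed over 6 genes to 1219 and 311 in fetal alcohol samples, 6105 in the isocaloric sample and 5716 and 5371 in control diet samples, and 4 of 5 tested had negative differences after fetal alcohol and 1 of 5 for isocaloric minus control diet. Except on fetal alcohol array 2, most of that sum was the marker Ttr alone. Ttr had 1004 and 69.2 in fetal alcohol samples, 5391 in the isocaloric sample and 5297 and 4886 in control diet samples. Markers of meninges and connective tissue were negative in 10 of 10 genes after fetal alcohol, beside 49.5% of all probe sets. For isocaloric minus control diet they were negative in 8 of 10, beside 48.6%. Their sum was 6601 and 3007 in fetal alcohol samples, 5099 in the isocaloric sample and 5522 and 8235 in control diet samples. Fetal alcohol array 1 thus lay between the control diet arrays, and fetal alcohol array 2 below both. The part of all these markers in the member values was not tested. In a bulk sample, fewer cells of a type and less RNA per cell cannot be told apart.

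Taking each member at its brightest probe set, the 3 that varied most over the 5 arrays were Bcl2, Bcl2l1 and Casp2. For each, the gene with the closest pattern was found among the tested probe sets, by the root mean square distance of centred log2 values. For Bcl2 it was Irs2, an insulin receptor substrate (distance 0.05, r = 0.997 over 5 arrays). For S78284_s_at of Bcl2l1 it was Ina, a neuronal intermediate filament protein (0.05, r = 0.994), which had 479 and 545 in fetal alcohol samples and 373 in the isocaloric sample, against 975 and 755 in control diet samples. For U77933_at of Casp2 it was Inhbe, an inhibin subunit (0.03, r = 0.999). With 4376 or 4378 candidates for each and 5 arrays, close matches are found for many patterns, so these are given as a description.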

How the data were processed

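Each deposited file value is an intensity on a linear scale. No label or header names the software or scaling behind it. Trimmed means (2% trimmed) of the 5 arrays lay between 150.19 and 150.22, within the factor of 1.1 taken as already scaled, so the deposited intensities were kept. After 59 control probe sets were left out, 10.6, the 20th percentile of the remaining values, was added before taking log2. Testing was limited to the 5244 probe sets whose mean log2 value over all 5 arrays reached the 40th percentile. Genes were named where the platform annotation gave exactly 1 symbol (7006 of 8740 probe sets). All 3 comparisons used limma 3.58.1 in R 4.3.3, two-sided, with an intensity trend, 2 residual and 6.30 prior degrees of freedom and Benjamini-Hochberg adjustment over all tested probe sets. The isocaloric array was assumed to vary like the others. The fit was tested on simulated arrays. Alternatives changed the offset, filter, normalization, variance model, arrays used, replicate block and probe set. Members and lists were chosen with earlier results of these data known. By rule, all members were named, and from each other list the 2 genes with the largest fetal alcohol minus control diet difference at the brightest probe set. Sequences come from RefSeq.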

Additional observations from a re-analysis of the deposited data

How the results depend on the processing

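No member probe set passed the threshold in any comparison under any of the 15 alternatives run for fetal alcohol against control diet or the 12 run for each other comparison. Over these, limma adjusted p-values of members ran from 0.10 to 1.0 for fetal alcohol against control diet, from 0.193 to 1.0 against isocaloric diet and from 0.0706 to 1.0 for isocaloric against control diet. Direction was kept in 141 of 146 values of the first comparison, 111 of 116 of the second and 114 of 116 of the third. Changing the filter, the variance model or the replicate block leaves the difference itself as it was. So does using the fetal alcohol and control diet arrays alone, or leaving out an array that a comparison does not use. Such values could not change sign, so these counts overstate how stable the direction was.

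The replicate numbers in the titles are shared by fetal alcohol and control diet, but nothing says that they pair arrays (same-numbered deviations correlated at -0.11 over probe sets, with 1 value available). With a replicate block 8 of all probe sets passed between fetal alcohol and control diet, none of them a member. The count over all probe sets in that comparison, 0 as analysed, was 1 with double the offset, 1 with quantile normalization, 1 with robust eBayes and 9 with equal medians. It ran from 0 to 25 with 1 array left out (17 without fetal alcohol array 1 and 25 without array 2, where the spread came from the control diet arrays alone). Against isocaloric diet it was 3 with quantile normalization, 3 with equal medians and 1 with robust eBayes, and ran from 0 to 12 with 1 array left out (10 without fetal alcohol array 1 and 12 without array 2). For isocaloric against control diet it ran from 0 to 13 (11 and 13 without the same arrays). The cause of these changes was not tested.

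The sign changes were as follows. With the isocaloric array in the reference, AF025671_s_at of Casp2 became 0.078 against control diet. Against isocaloric diet, Bak1 became -0.0051 with quantile normalization and -0.0091 with equal medians, and for isocaloric against control diet Casp1 became 0.00017 with equal medians. With 1 array left out, fetal alcohol minus control diet ran from -0.28 (without fetal alcohol array 1) to 0.38 at U72350_at of Bcl2l1, with -0.13 without control diet array 1. It ran from -0.18 (without fetal alcohol array 2) to 0.41 for Bcl2l2, with -0.018 without control diet array 1. Fetal alcohol minus isocaloric diet ran from -0.067 to 0.083 for Bak1, from -0.12 to 0.53 for Bcl2 and from -0.038 to 0.34 at U34684_s_at of Casp2, each time negative without fetal alcohol array 2. Isocaloric minus control diet ran from -0.11 to 0.0017 (without control diet array 2) for Casp1. Averaging all probe sets of a gene, dim ones included, gave fetal alcohol minus control diet differences of -0.25 for Bcl2, -0.25 for Bcl2l1, 0.01 for Casp1 and 0.22 for Casp2. Of the members, 2 Bcl2, 2 Casp1 and 2 Casp6 probe sets and 1 of Bcl2l1 were too dim to test, which limits what can be said of them.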
